A study of Mus musculus with 222 samples.

Results

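The germ cells described here were the Control cells of the E12.5 single-cell libraries, kept where a well held at least 50000 counts and at least 1500 genes with a count. Of 96 Control wells, 65 passed: 14 and 16 cells of XX embryos, called XX-a and XX-b here, and 13 and 22 cells of XY embryos, XY-a and XY-b. They are 65 of the 127 kept cells among 192 E12.5 wells, in a series of 222 samples. The series asks what EED, which Polycomb repressive complex 2 (PRC2) needs to methylate histone H3, does in mouse primordial germ cells, and ECKO (conditional Eed knockout) cells enter none of the values given here, apart from 1 alternative fit in which they share the estimate of spread. The Control embryos are labelled wild type on a mixed C57BL/6;129S1/SvlmJ background, at E12.5. They came from OG; Eed fl/fl mothers and BC; Eed fl/+ fathers, so every Control received a floxed Eed allele from its mother, and the labels do not say which Controls carry the Cre. OG is the Oct4-GFP reporter used to sort the cells from trypsin-digested gonads, and each sorted cell was made into a Smart-seq2 library by itself, from polyadenylated RNA. Every embryo gave 24 wells, and its code in the column headers could not be tied to the embryo numbers 1 and 2 of the labels.

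Primordial germ cells are the embryonic precursors of eggs and sperm. In the mouse they divide in the gonad until about the age sampled here and express pluripotency genes together with germ cell genes. XX cells then enter meiosis and XY cells arrest in the cell cycle and take the male path, in which Nodal signalling is active for a short time. XX germ cells also reactivate the silenced X chromosome around this age.

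Kept cells held 99840 to 3380505 counts, and wells left out held at most 39830. XX cells were deeper than XY cells, with median totals of 1981852 and 1638230 counts against 1087623 and 990910.5, yet had fewer genes with a count (medians 6002.5 and 6824.5 against 7213 and 7328.5). Levels are given as CPM, counts per 1000000 of a cell's total, and a gene was scored as present in a cell at 10 CPM or more. 5 cells, 1 of XX-a and 4 of XX-b, stood apart: Spearman's rho to the median profile of all 65 cells was under 0.6 for each. They had 4003 to 6304 genes against 5429 to 8508 in the other 60. The limit marks no wide gap, with a highest rho of 0.587 among the 5 and a lowest of 0.617 among the 60. The profile pools both sexes, and the median rho was 0.654 in XX-a, 0.680 in XX-b, 0.695 in XY-a and 0.717 in XY-b. Y-linked counts were found in 0 of 14 cells of XX-a, 1 of 16 of XX-b (7 counts), 11 of 13 of XY-a and 22 of 22 of XY-b. Cells of 1 embryo share that embryo, so cells are described and only embryos are compared, with 2 per sex.

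The label germ cells held for nearly every cell. Dppa3 had lowest, median and highest values of 114, 595 and 938 CPM in XX-a, 288, 508 and 1117 in XX-b, 409.8, 587 and 963 in XY-a and 299.6, 782 and 1975 in XY-b. Dppa3 (Stella), which protects DNA methylation in the early embryo, was present in all 65 cells. Dppa5a had lowest, median and highest values of 1217, 2587 and 5222 CPM in XX-a, 596, 2728 and 7057 in XX-b, 1604, 2934 and 5799.6 in XY-a and 2083, 4790.1 and 6831 in XY-b. Utf1 had lowest, median and highest values of 1528, 3292 and 7923 CPM in XX-a, 751, 2805 and 6083 in XX-b, 3085, 4526 and 8093 in XY-a and 1925, 3251 and 7114 in XY-b. Dppa5a, an RNA-binding protein, and Utf1, a chromatin-bound pluripotency factor, were also present in all 65, and the embryos' ranges overlapped for all 3 genes. The same held for the other genes given here by lowest, median and highest value, apart from Rpl29, Rplp0, Maged1, Lefty2 and Phlda2.

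The other 4 markers were missing from some cells. Pou5f1 had lowest, median and highest values of 97.5, 189.7 and 579.6 CPM in XX-a, 0, 315 and 662 in XX-b, 147, 352 and 517 in XY-a and 35.6, 185 and 397 in XY-b. Pou5f1 (Oct4), the gene whose regulatory sequence drives the GFP reporter of the sort, was present in 63 cells. The 2 cells without it, at 0 and 5.78 CPM, belonged to XX-b and were both among the 5 cells that stood apart. Dnd1 had lowest, median and highest values of 1.08, 992 and 5319 CPM in XX-a, 84.9, 1184 and 2128 in XX-b, 6.38, 923 and 1754 in XY-a and 188, 1008 and 2569.8 in XY-b. Dnd1, an RNA-binding protein needed for germ cell survival, was present in 63 cells. Dazl had lowest, median and highest values of 25.7, 302 and 1018 CPM in XX-a, 0, 59.5 and 486 in XX-b, 57.9, 235 and 621 in XY-a and 0, 66.3 and 342 in XY-b. Dazl, the RNA-binding protein that licenses germ cells for sexual differentiation, was present in 14 of 14 cells of XX-a, 13 of 16 of XX-b, 13 of 13 of XY-a and 20 of 22 of XY-b. Ddx4 had lowest, median and highest values of 21.6, 87.7 and 313 CPM in XX-a, 0, 40.5 and 137 in XX-b, 20, 62.9 and 243 in XY-a and 0, 16.3 and 44.9 in XY-b. Ddx4, the germ cell RNA helicase Vasa, was present in 14 of 14 cells of XX-a, 15 of 16 of XX-b, 13 of 13 of XY-a and 14 of 22 of XY-b, which in XY-b is 63.6% (exact Clopper-Pearson 95% interval 40.7% to 82.8%, which covers counting of cells only). Median Dazl and Ddx4 were higher in XX-a and XY-a than in XX-b and XY-b, so that this order crossed the sexes. Each cell held 5 to 7 of the 7 markers, with a median of 7 in every embryo, as the plot of marker levels shows.

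**Figure D1:**
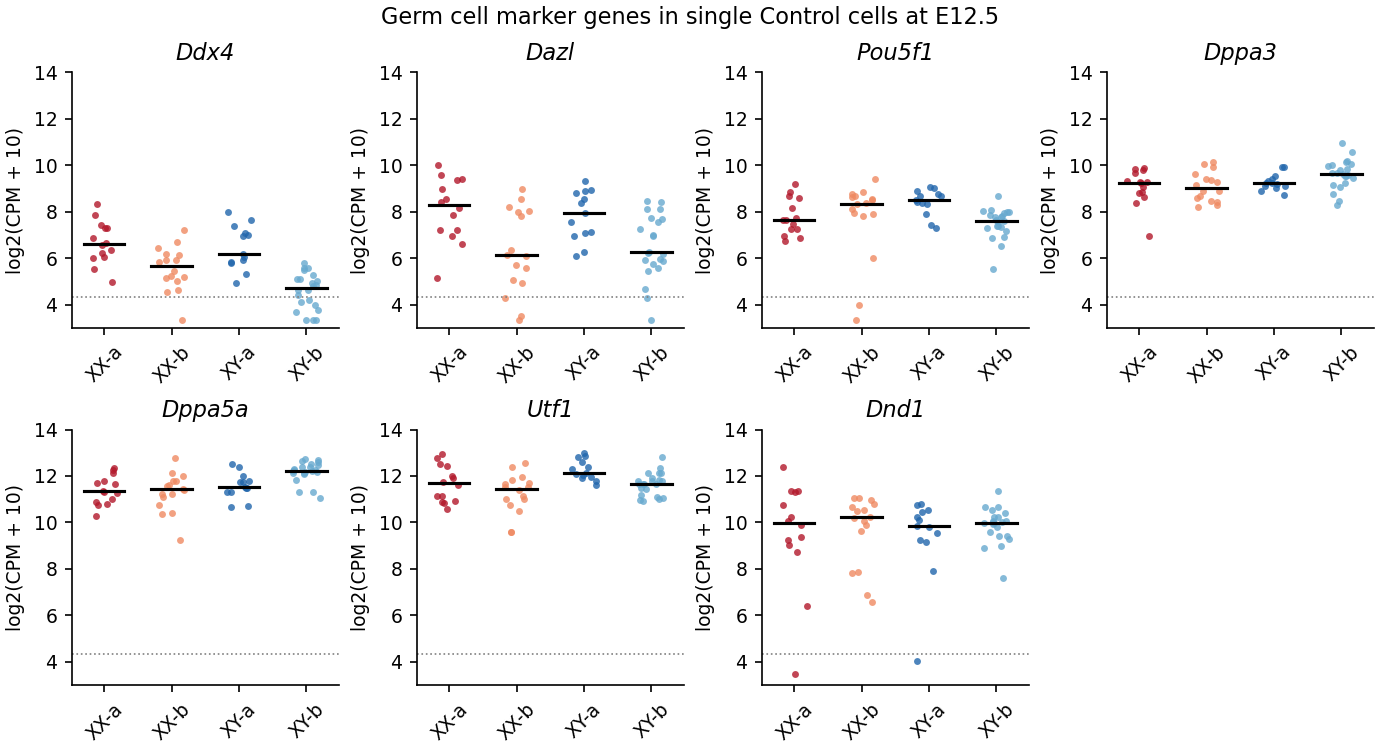
Level of the 7 germ cell markers in single Control cells, as log2(CPM + 10), by embryo. Each point is a cell, black bars are embryo medians and the dotted line is 10 CPM. Dppa3, Dppa5a and Utf1 lie above the line in all 65 cells, and Ddx4 falls below it in 8 of the 22 cells of XY-b.

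Most markers of the other gonadal cells were absent or present in few cells. Of 18 markers of supporting cells 9 were present in no cell, among them Sox9, Wt1, Gata4, Foxl2 and Nr5a1, and the same held for 13 of 17 interstitial, 3 of 9 endothelial, 9 of 11 blood and 3 of 5 mesonephric markers, among them Pdgfra, Nr2f2, Col1a1 and Ptprc. Of the endothelial markers, Plvap was present in 35 of 65 cells, Egfl7 in 26, Cldn5 in 12 and Esam in 11, and a cell held 0 to 5 of the 9, with the highest number in XX-b. Of the other markers, Aard was present in 38 cells, Lhx1 in 37, Krt18 in 24 and Nr0b1 in 14, and each of the rest in 6 or fewer. Lhx1 was unevenly spread, with 1 of 14 cells of XX-a, 8 of 16 of XX-b, 9 of 13 of XY-a and 19 of 22 of XY-b. The summed level per cell was 0 to 934 CPM for supporting, 0 to 53.7 for interstitial, 0 to 388 for endothelial, 0 to 414 for blood and 0 to 396 for mesonephric markers.

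Pluripotency and early germ cell genes split into a part shared by all cells and a patchy part. Of 38 genes, 5 were present in every cell (the 3 markers above, Dppa4 and Ifitm1), 13 in at least 90% of cells, 3 in none (Tbx3, Fgf4 and Sall1), and a cell held 16 to 30 of them with a median of 25. Kit, the receptor for the survival signal of migrating germ cells, was present in 64 cells, Tfap2c, a regulator of germ cell fate, in 63 and Nanos3, which guards germ cells from death, in 54. Prdm14 and Prdm1 (Blimp1), transcriptional regulators of germ cell specification, were present in 42 and 30 cells, and Klf4, a pluripotency factor, in 2. Nanog had lowest, median and highest values of 0.331, 99 and 367 CPM in XX-a, 7.22, 64.6 and 220.2 in XX-b, 20, 43.5 and 131 in XY-a and 0, 26.7 and 89.8 in XY-b. Nanog, a core pluripotency factor, was present in 56 cells.

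Sox2 had lowest, median and highest values of 0, 8.78 and 175 CPM in XX-a, 0.838, 62.8 and 276.6 in XX-b, 33, 91.3 and 319.5 in XY-a and 0, 188 and 634 in XY-b. Sox2, the partner of Oct4, was present in 6 of 14 cells of XX-a, 13 of 16 of XX-b, 13 of 13 of XY-a and 21 of 22 of XY-b. The share was 42.9% in XX-a (95% interval 17.7% to 71.1%) and 95.5% in XY-b (77.2% to 99.9%). XX-a had the highest median count total of the 4 embryos and the lowest median number of genes, and the part of detection in the difference was not tested. After every cell was thinned to 50000 counts the shares of cells with a Sox2 count were 44.9% and 92.3%. Esrrb and L1td1 were likewise least often present in XX-a, in 6 and 6 of 14 cells against 20 and 22 of 22 in XY-b.

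Meiosis genes were mostly absent or patchy. Of 32 genes matched, Syce2, a central element protein of the synaptonemal complex, was present in all 65 cells, and Stag3 and Psmc3ip in 57 and 57, while 12 were present in under 10% of cells. Stra8, the gatekeeper of meiosis, was present in 1 cell, of XX-a, at 49.9 CPM, and Sycp3, an axis protein, in 2 cells of XX-a and 1 of XY-b. These shares depend on the 10 CPM limit: at 1 count or more, Sycp3 was found in 50.8% of cells and Stra8 in 7.69%. In the germ cell RNA-binding and genome defence list, Tex19.1, a retrotransposon repressor, was present in all cells, Mov10 and Rbmxl2 in 63 each, Piwil2 in 39, Mael in 28 and Piwil4 in 5. Nanos2 and Dnmt3l, markers of the later male germ cell, had no count in any of the 65 cells, so a share with a count of up to 4.62% is allowed (3 of 65).

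Eed, the gene deleted in ECKO embryos, and its PRC2 partners named here were each present in most Control cells. Eed had lowest, median and highest values of 7.59, 47.2 and 203 CPM in XX-a, 0, 46.3 and 139 in XX-b, 9.19, 41.5 and 65.4 in XY-a and 5.16, 35.9 and 110.3 in XY-b. Eed was present in 12 of 14 cells of XX-a, 15 of 16 of XX-b, 10 of 13 of XY-a and 20 of 22 of XY-b. Ezh2, the methyltransferase, was present in 61 cells, Jarid2 in 62, Rbbp4 in 65 and Suz12 in 37. Among genes for DNA methylation, Dnmt1, the maintenance enzyme, was present in 61 cells and Tet1 in 57, but Uhrf1, the cofactor of Dnmt1, in 19, Dnmt3a in 32 and Dnmt3b in 8.

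A shared set of 628 genes was present in each of the 65 cells, of 24391 symbols and 13087 genes present in any. 1916 genes were present in at least 90% of cells, and 3788 in more than 0 but at most 10%. Without the 5 cells that stood apart, 1024 genes were present in all 60 cells. Cell-to-cell spread was measured as the coefficient of variation (CV), the SD of CPM over an embryo's cells divided by their mean, for the 3470 genes whose 4 embryo means averaged at least 50 CPM. Since reads carry no molecular identifiers, loss of RNA and amplification enter every CV, and their part was not tested.

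The 12 most uniform genes included 6 ribosomal protein genes. The 12 with the smallest highest CV were Hsp90ab1, Cct7, Rps9, Rpl7a, Rps6, Rps2, Nhp2, Rps23, Stmn1, Rpl15, Banf1 and Psmb6. Hsp90ab1 had lowest, median and highest values of 3816, 6924 and 8210.5 CPM in XX-a, 3372, 5864 and 8435 in XX-b, 2584, 4796 and 6875 in XY-a and 3969, 5701 and 9768 in XY-b. Hsp90ab1, a chaperone, had CVs of 0.232 to 0.256. Cct7 had lowest, median and highest values of 1153, 2256 and 3113 CPM in XX-a, 1335, 1938 and 2660.0 in XX-b, 1725, 2370.4 and 3253 in XY-a and 934, 1749 and 2940.2 in XY-b. Cct7, a subunit of the chaperonin that folds actin and tubulin, had CVs of 0.188 to 0.266. Besides the ribosomal proteins the set held Nhp2, which works in ribosomal RNA modification, Banf1, a DNA-bridging protein of the nuclear envelope, Psmb6, a proteasome subunit, and Stmn1, a tubulin-binding protein, and the largest of their highest CVs was 0.326.

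Of 79 ribosomal protein genes among the 3470, a group chosen after these values were seen, 76 were present in every cell and their median CV was 0.357, against 0.739 over all 3470. They are also abundant, and CV falls with level: as a ratio to the median CV of genes of like mean, their median was 0.85. Counts of single ribosomal protein genes are uncertain because of their near-identical pseudogenes. Housekeeping genes had a median CV of 0.479. As a ratio to genes of like mean their median was 0.99, against 0.988 over all 3470, so they were not more uniform for their level. Actb, Gapdh, Eef1a1 and Ppia were among 10 of 19 housekeeping genes present in all 65 cells. Of the same list B2m, a subunit of class I histocompatibility molecules, was present in 0 cells and Gusb, a lysosomal enzyme, in 5.

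**Figure D2:**
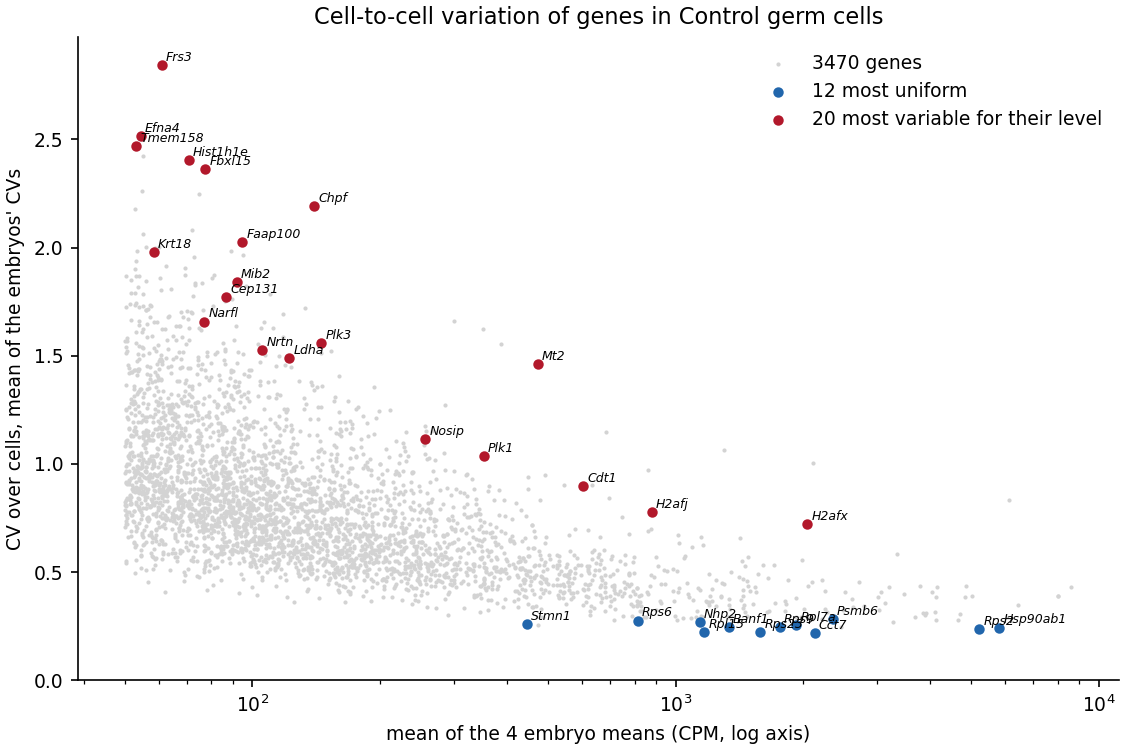
CV over cells (mean of the embryos' CVs) against the mean of the 4 embryo means in CPM, on a log axis, for 3470 genes. The 12 most uniform genes (blue) lie along the lower edge at CVs of at most 0.326 in any embryo, and the 20 most variable for their level (red) lie along the upper edge, with Mt2, H2afj and H2afx at high levels.

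At the other end, 54 of the 3470 genes (1.56%) had a CV of at least 1.5 times that of genes of like mean in all 4 embryos, and 707 (20.4%) lay below that trend in all 4. Just inside the limit were Fancf and Spen, with lowest ratios of 1.5027 and 1.5011, and just outside were Rab3il1 at 1.4983 and Mapk8ip3 at 1.4962. Without the 5 cells that stood apart the count was 71, of which 43 were among the 54. The 20 with the largest lowest ratio were Fbxl15, Faap100, Mt2, Tmem158, Chpf, Frs3, Efna4, Nrtn, Krt18, Hist1h1e, Nosip, Plk3, Mib2, H2afj, H2afx, Plk1, Cep131, Narfl, Cdt1 and Ldha. Their ratios ran from 1.64 to 4.71 over genes and embryos.

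The 20 genes were present in 12 to 65 cells. Frs3, an adaptor of growth factor receptors, was present in 12 of 65 cells, and in XX-a in 1 cell, at 2136 CPM, and in no other cell of that embryo. Fbxl15 had lowest, median and highest values of 0, 0 and 1126 CPM in XX-a, 0, 0 and 141 in XX-b, 0, 0 and 544 in XY-a and 0, 0 and 562 in XY-b. Fbxl15, a subunit of a ubiquitin ligase, was present in 18 cells, and the median was 0 in every embryo. Tmem158, Efna4, Faap100, Krt18 and Mib2 were present in 14, 15, 22, 24 and 24 cells, and Chpf, Narfl, Cep131 and Nrtn in 26, 28, 29 and 31. Hist1h1e, a linker histone, was present in 18 of 22 cells of XY-b and in 1, 4 and 4 cells of XX-a, XX-b and XY-a.

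Mt2, H2afx, Plk1, Cdt1 and Ldha, also among the 20, were present in most cells over a wide range. Mt2 had lowest, median and highest values of 0, 144 and 1277 CPM in XX-a, 18, 453 and 6593 in XX-b, 0, 10 and 299 in XY-a and 0, 286 and 2377 in XY-b. Mt2, a metal-binding metallothionein, was present in 10 of 14 cells of XX-a, 16 of 16 of XX-b, 7 of 13 of XY-a and 20 of 22 of XY-b and had CVs of 1.15 to 1.78. H2afx had lowest, median and highest values of 203, 1667 and 4173 CPM in XX-a, 2.05, 1873 and 5179 in XX-b, 665, 2730.5 and 5409 in XY-a and 114, 1066 and 4859 in XY-b. H2afx, the histone variant that marks DNA breaks, was present in 64 cells, with CV ratios of 1.69 to 2.52. Plk1 had lowest, median and highest values of 0, 155 and 1000.3 CPM in XX-a, 0, 385 and 1728 in XX-b, 0, 301.3 and 1596 in XY-a and 0, 222 and 755 in XY-b. Plk1, the kinase that drives entry into mitosis, was present in 54 cells, with CV ratios of 1.68 to 2.45. Cdt1, which licenses replication origins before S phase and is degraded within it, was present in 60 cells, with a highest value of 2489 CPM. Ldha, of glycolysis, was present in 45 cells, while Ldhb was present in 65.

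Among the lists, 3 of 37 G2/M genes (Plk1, Cdc20 and Ccnb1) and 0 of 32 S phase genes reached 1.5 times the trend in all 4 embryos, against 1.56% of all genes. Germ cell markers and pluripotency genes gave 0 of 7 and 0 of 22. The median CV was 0.642 for S phase genes, 0.735 for G2/M genes and 0.639 for pluripotency genes, against 0.739 over all 3470. The lists differ in level, and as a ratio to the trend their medians were 0.927, 1.04 and 0.985, against 0.988 over all 3470. The 5 imprinted genes measured had a median CV of 1.28 and a median ratio of 1.64, and 0 of 5 reached the limit in all 4 embryos.

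Cell cycle state was read from gene lists, not from DNA content. G2/M genes rise from the end of replication through mitosis, and many carry the element CHR (letters TTTGAA) with CCAAT boxes in their promoters, while S phase genes are targets of E2F factors (letters TTTCGCGC or TTTGGCGC). In the 250 bases before the start of each gene's first listed RefSeq promoter (build GRCm38.p6, both strands), TTTGAA was found for 19 of 48 G2/M genes (39.6%) and 5 of 31 S phase genes (16.1%), against 16.3% of all 27025 promoters and 10.1% of those of genes at 50 CPM or more here. At least 2 CCAAT boxes stood in 56.2% of G2/M and 38.7% of S phase promoters, against 10.54% and 16.6%. An E2F match stood in 5 S phase promoters (16.1%) and 2 G2/M promoters, against 0.673% and 2.04%. A match is a description of letters and not a site shown to be bound, and of 56 G2/M and 43 S phase genes the rest had no entry.

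The following promoters are of genes named in this account: Cdc20, Ccnb1 and Plk1 as the G2/M genes most variable for their level, Ccnb2 as a G2/M gene present in 64 cells, Fam83d as a gene outside the lists that followed them, and Mcm5 and Mcm6 as S phase genes present in every cell. Capitals mark TTTGAA and CCAAT on either strand in the G2/M genes and Fam83d, and E2F matches on either strand in Mcm5 and Mcm6. The window of Cdc20 lies at chr4:118437344-118437593 (minus strand). That of Ccnb2 lies at chr9:70421555-70421804 (minus strand). That of Fam83d lies at chr2:158767849-158768098 (plus strand). That of Ccnb1 lies at chr13:100786487-100786736 (minus strand). That of Plk1 lies at chr7:122159185-122159434 (plus strand). That of Mcm5 lies at chr8:75109259-75109508 (plus strand). That of Mcm6 lies at chr1:128359706-128359955 (minus strand).
Cdc20: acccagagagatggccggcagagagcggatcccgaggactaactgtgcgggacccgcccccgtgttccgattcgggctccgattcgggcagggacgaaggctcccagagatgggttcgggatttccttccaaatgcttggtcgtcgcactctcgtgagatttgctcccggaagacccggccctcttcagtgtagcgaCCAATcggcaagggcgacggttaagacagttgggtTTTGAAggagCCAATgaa
Ccnb2: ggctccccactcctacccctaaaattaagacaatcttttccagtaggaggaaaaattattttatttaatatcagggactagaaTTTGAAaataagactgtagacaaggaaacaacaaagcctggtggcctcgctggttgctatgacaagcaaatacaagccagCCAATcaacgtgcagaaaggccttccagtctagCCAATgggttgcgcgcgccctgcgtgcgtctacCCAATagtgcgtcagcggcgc
Fam83d: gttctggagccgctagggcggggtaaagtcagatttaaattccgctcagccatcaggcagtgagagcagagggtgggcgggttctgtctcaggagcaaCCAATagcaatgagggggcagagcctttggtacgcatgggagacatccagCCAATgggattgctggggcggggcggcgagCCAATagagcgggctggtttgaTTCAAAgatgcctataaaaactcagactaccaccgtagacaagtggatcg
Ccnb1: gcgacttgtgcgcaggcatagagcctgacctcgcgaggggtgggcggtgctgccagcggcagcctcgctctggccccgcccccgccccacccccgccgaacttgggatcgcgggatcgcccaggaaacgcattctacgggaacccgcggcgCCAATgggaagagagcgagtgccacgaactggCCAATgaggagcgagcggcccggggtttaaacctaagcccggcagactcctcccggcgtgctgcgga
Plk1: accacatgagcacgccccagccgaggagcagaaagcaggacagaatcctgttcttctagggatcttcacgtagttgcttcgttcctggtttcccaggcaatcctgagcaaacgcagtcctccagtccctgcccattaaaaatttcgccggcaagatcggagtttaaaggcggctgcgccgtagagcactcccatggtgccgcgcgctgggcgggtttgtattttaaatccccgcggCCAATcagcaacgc
Mcm5: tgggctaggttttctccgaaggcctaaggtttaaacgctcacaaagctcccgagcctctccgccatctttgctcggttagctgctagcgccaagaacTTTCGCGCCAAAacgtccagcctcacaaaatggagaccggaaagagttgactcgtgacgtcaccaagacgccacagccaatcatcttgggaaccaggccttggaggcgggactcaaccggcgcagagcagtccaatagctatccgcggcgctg
Mcm6: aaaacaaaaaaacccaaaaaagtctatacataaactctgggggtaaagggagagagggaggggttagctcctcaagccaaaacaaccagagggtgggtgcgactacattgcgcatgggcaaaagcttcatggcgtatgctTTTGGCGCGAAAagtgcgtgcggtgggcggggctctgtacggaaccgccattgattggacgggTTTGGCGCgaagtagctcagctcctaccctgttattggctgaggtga

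Cdc20 had 1 TTTGAA match and 2 CCAAT boxes, Ccnb2 1 and 3, and Fam83d 1 and 3. Ccnb1 and Plk1 had 0 TTTGAA matches in this window and 2 and 1 CCAAT box matches. Mcm5 and Mcm6 had 2 and 3 E2F matches, which overlap where the letters share bases.

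Nearly all cells expressed genes of both phases. Of 43 S phase genes matched a cell held 25 to 42 (median 36), and of 56 G2/M genes 25 to 53 (median 46). Mcm5, Mcm6 and Pcna, of the replication fork, and Ccnb1, Ube2c and Hmgb2, of the later phases, were present in all 65 cells. Ccnb1 had lowest, median and highest values of 37.4, 701 and 2139 CPM in XX-a, 102, 508 and 1835 in XX-b, 92.9, 357 and 2410.1 in XY-a and 55, 254 and 1298 in XY-b. Ccnb1, the cyclin of mitosis, thus spanned a wide range in each embryo, and its ranges overlapped between all embryos. Pcna had lowest, median and highest values of 99.8, 511 and 1003 CPM in XX-a, 99.6, 290.2 and 752 in XX-b, 313, 479 and 802 in XY-a and 119, 439 and 1072 in XY-b. Pcna, the replication clamp, was narrower. Mki67, a proliferation marker, was present in 54 cells, and Top2a, which untangles chromosomes, in 63.

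Summed over the list, S phase genes had a lowest, median and highest level of 3471, 7776 and 13081 CPM in cells of XX-a, 2395, 5597 and 10114 in XX-b, 5132, 9319.9 and 12020.5 in XY-a, and 2925, 5697 and 9402 in XY-b. For G2/M genes these were 7775, 11371 and 20828 in XX-a, 3380.2, 10099 and 21612 in XX-b, 7345, 8988 and 21869 in XY-a, and 6456, 10973 and 15666 in XY-b. XY-a thus stood out by its S phase sum, in cells of which 7 of 13 had a higher S than G2/M sum, against 0 of 14, 2 of 16 and 1 of 22 in XX-a, XX-b and XY-b. The sums are over lists of different length, so equal sums mark no phase boundary, and only the order of cells can be read.

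**Figure D3:**
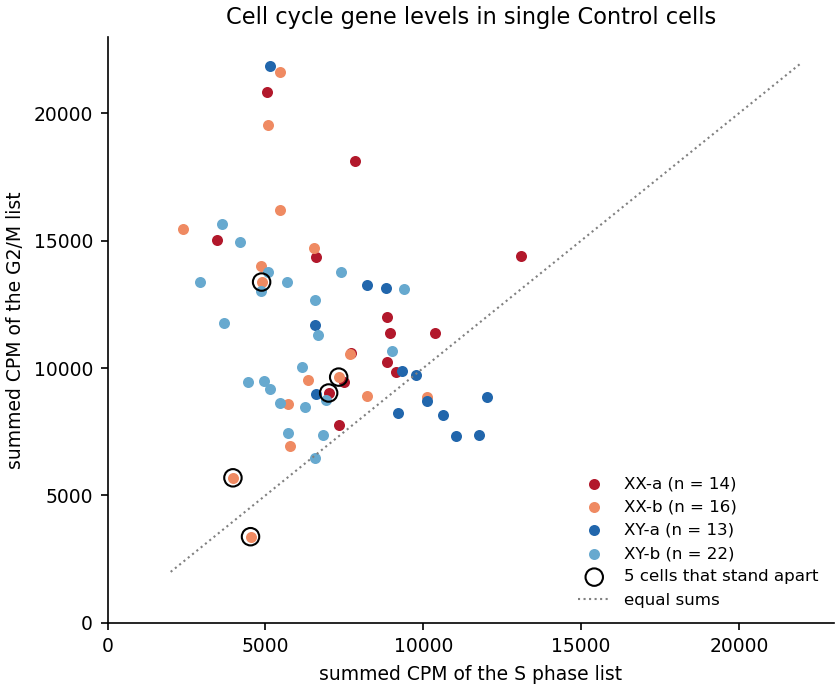
Summed CPM of the S phase list (x axis) and of the G2/M list (y axis) in each of 65 Control cells, coloured by embryo, with the 5 cells that stood apart ringed and a dotted line where both sums are equal. Cells of highest G2/M sum have low to middle S sums, and 10 cells lie below the line, 7 of them of XY-a.

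Across cells, after each embryo's mean was taken away, the log2 sums of the 2 lists had a Pearson r of -0.29 (n = 65 cells), and -0.45 without the 5 cells that stood apart (n = 60). The embryos gave -0.31 in XX-a (n = 14), -0.09 in XX-b (n = 16), -0.79 in XY-a (n = 13) and -0.31 in XY-b (n = 22). With the mean of log2(CPM + 10) over each list in place of the sum, r was -0.07. The G2/M sum also moved with the number of genes detected (r 0.50) and the log2 total count (0.37), and the part of depth in it was not tested. The S sum did so less over all cells (-0.03 and 0.14). By embryo, however, its r with the number of genes was 0.19 in XX-a, 0.11 in XX-b, -0.43 in XY-a and -0.28 in XY-b. Each r is a description over cells, which share their embryo and are scaled to 1 total.

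Within the G2/M list most members rose and fell with the rest. Against the log2 sum of the other members, 29 of 37 genes at 50 CPM or more had an r over 0.3, with Tpx2 at 0.71, Aurka at 0.69, Hmmr at 0.67 and Ccnb1 at 0.66, all genes of the mitotic spindle or its control. Lbr (0.07) and Anp32e (-0.02) did not follow the list. Of 32 S phase genes, 21 had an r over 0.3, with Mcm4 and Cdc45 of the replicative helicase at 0.61 and 0.61 and Rrm2, of nucleotide synthesis, at 0.57, and Ung had 0.04. The share of all genes with an r over 0.3 to either sum was not computed, so these counts have no background. The G2/M sum also moved with the number of genes detected (r 0.50). Without the 5 cells that stood apart some G2/M members crossed 0.3 in either direction, such as Aurkb (0.37 to 0.25) and Ckap5 (0.25 to 0.35).

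Outside the lists, the 8 genes most correlated with the G2/M sum were Kif20a (0.71), Arl6ip1 (0.70), Kpna2 (0.66), Hspa8 (0.65), Fam83d (0.63), Bub3 (0.61), Ube2s (0.59) and Smn1 (0.59). Kif20a is a kinesin of cell division, Fam83d and Bub3 act at the spindle and its checkpoint, and Ube2s works with the anaphase-promoting complex. Kif20a had lowest, median and highest values of 0, 194 and 1483 CPM in XX-a, 0, 160.2 and 534 in XX-b, 62.5, 194 and 729 in XY-a and 4.12, 68.5 and 206 in XY-b. Kif20a spread widely within each embryo and its r was 0.67 without the 5 cells. The 8 for the S sum were Orc6 (0.64), Psma4 (0.57), Ppa1 (0.55), Snrpa1 (0.54), Tfdp1 (0.53), Trap1a (0.53), Cdc7 (0.50) and Lrrc59 (0.50), of which Orc6 is a subunit of the origin recognition complex, Cdc7 a kinase that fires origins and Tfdp1 the partner of E2F.

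Among cyclins and their regulators, the G1 genes were uneven. Ccnd3 had lowest, median and highest values of 20.4, 558 and 1511 CPM in XX-a, 7.1, 536 and 1861 in XX-b, 264, 653 and 1377 in XY-a and 139.6, 318 and 627 in XY-b. Ccnd3 was present in 64 cells, while the other D-type cyclins, Ccnd1 and Ccnd2, were present in 7 and 8. Their kinase partner Cdk4 was present in 65 cells and Cdk6 in 10. Ccne1, the E-type cyclin of S phase entry, was present in 63 cells and Ccne2 in 11. E2f1 was present in 58 cells and Rb1 in 10.

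Among cell cycle inhibitors, Cdkn1a (p21) was present in most cells and the others named here in fewer. Cdkn1a had lowest, median and highest values of 0, 37.9 and 612 CPM in XX-a, 0, 82.9 and 385 in XX-b, 0, 76.1 and 228 in XY-a and 0, 161 and 2771 in XY-b. Cdkn1a was present in 48 cells, 18 of 22 in XY-b. Cdkn1c (p57), which is imprinted, was present in 28 cells, Cdkn1b (p27) in 2, and Cdkn2a, Cdkn2b and Cdkn2c in 3, 3 and 3. Of p53 targets and apoptosis genes, Bax and Trp53 were present in 65 and 64 cells, and Bbc3 (Puma) in 8.

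Most of the measured variance of a typical gene lay within embryos. On the log2(CPM + 10) scale the share of variance between the 4 embryos had a median of 7.3% over the 3470 genes, was 0 for 759 (21.9%) and exceeded 30% for 284 (8.18%). Without XY-a the median was 3.91% and without XY-b 4.50%. Loss of RNA and amplification enter the variance within embryos, as they enter every CV, and their part was not tested. The median share was 5.36% for genes with a mean of at least 20 CPM and 9.11% at 100 CPM. By list it was 29.96% for ribosomal protein genes, 16.42% for pluripotency genes and 2.59% for G2/M genes. Between embryo means, 333 genes differed by at least 2-fold (on the CPM + 10 scale) between XX-a and XX-b and 514 between XY-a and XY-b, against 295, 483, 487 and 570 for the 4 pairs of unlike sex. The smallest number belonged to XX-b and XY-b, so that embryos of 1 sex were not closest by this count. These 2 embryos also had the most kept cells, 16 and 22 against 14 in XX-a and 13 in XY-a. The part of cell number in the count was not tested.

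Among the 10 genes of largest between-embryo share were Lefty2, Rpl29, Lefty1, Rplp0, Phlda2, Maged1, Id1 and Lars2, with shares of 91.4% to 67.2%; these values chose them. Lefty1, Lefty2, Phlda2 and Id1 followed sex and are described below, and the other genes named did not. Rpl29 had lowest, median and highest values of 441, 1016 and 2352 CPM in XX-a, 377, 1064 and 4179 in XX-b, 851, 1612 and 2612 in XY-a and 61.3, 125 and 262 in XY-b. Rpl29, a ribosomal protein gene, was lower in every cell of XY-b than in any cell of the other embryos. Rplp0 had lowest, median and highest values of 1951, 3975 and 6035 CPM in XX-a, 698, 1289.9 and 2185 in XX-b, 1763, 3053 and 4686 in XY-a and 2422, 4678 and 6523 in XY-b. Rplp0, the stalk protein of the ribosome, was lowest in XX-b. Lars2 had lowest, median and highest values of 34, 108 and 1878 CPM in XX-a, 327, 4529.8 and 25611 in XX-b, 240.4, 520.0 and 1151 in XY-a and 359, 1339 and 4220.2 in XY-b. Lars2, the mitochondrial leucyl-tRNA synthetase, reached its highest values in XX-b. The part of reads shared with other sequences in these values was not tested, so they are not read as levels of its mRNA alone. Maged1 had lowest, median and highest values of 539, 1215 and 2032 CPM in XX-a, 208, 692 and 1186 in XX-b, 593, 899 and 1701 in XY-a and 131, 280.7 and 506 in XY-b. Maged1, an X-linked gene of the MAGE family, was lowest in XY-b and overlapped there with XX-b.

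XX and XY Control embryos were compared on counts summed over the cells of each embryo. In edgeR's quasi-likelihood test no gene passed a Benjamini-Hochberg adjusted p of 0.05 (0 of 11708, percent called 0), and 672 had an unadjusted p under 0.05. DESeq2 called 186 of the same genes (70 higher in XX, 116 in XY) and limma on embryo means of log2(CPM + 10) called 23 of 5930 (9 and 14). Leaving out XX-a or XX-b gave 84 and 268 calls, in fits where the lone embryo is taken to vary like the others, and leaving out XY-a or XY-b, or the 5 cells that stood apart, gave 0. By embryo values alone, 2076 genes (17.7%) had both XX embryos above both XY embryos and 2034 (17.4%) the reverse. The genes below are those of the lists and of the between-embryo rule, and none is called changed.

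Nodal pathway genes had higher values in XY cells. Lefty1, a secreted inhibitor of Nodal, had no count in any of the 30 XX cells, so the floor of 3 cells allows shares up to 21.4% of cells in XX-a and 18.8% in XX-b. In XY cells its lowest, median and highest values were 0, 341 and 1669 CPM in XY-a and 0, 209 and 1076 in XY-b, and 12 of 13 and 21 of 22 cells reached 10 CPM. Over summed counts it was at least 2683-fold lower in either XX embryo than in either XY embryo, against a floor of 3 counts per embryo, and its adjusted p in edgeR was 0.0702, the smallest of all genes. Lefty2 had lowest, median and highest values of 0, 0 and 0 CPM in XX-a, 0, 0 and 53.6 in XX-b, 288, 914 and 1763 in XY-a and 17.4, 367 and 1000.4 in XY-b. Lefty2, the paralogous inhibitor, was present in all 35 XY cells and 1 XX cell, with TMM-scaled CPM of 0 and 6.66 in XX and 1115 and 387 in XY and an adjusted p of 0.812.

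Nodal, the TGF-beta family ligand, was present in most XY cells and a few XX cells. Nodal had lowest, median and highest values of 0, 0 and 123 CPM in XX-a, 0, 0 and 144 in XX-b, 28.5, 70.3 and 351 in XY-a and 0, 103 and 824 in XY-b. The ligand reached 10 CPM in 1 of 14 cells of XX-a, 4 of 16 of XX-b, 13 of 13 of XY-a and 16 of 22 of XY-b, and its log2 fold change of XX over XY was -3.38 ± 0.46 (SE) with an adjusted p of 0.393 in edgeR. Tdgf1 (Cripto), the Nodal coreceptor, was present in 11 of 22 cells of XY-b and at most 2 cells of any other embryo.

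Within the 35 XY cells cell by cell relations between these genes were weak. After embryo means were taken away, r of log2(CPM + 10) was -0.10 for Nodal and Lefty1, 0.15 for Nodal and Lefty2, and 0.31 for Lefty1 and Lefty2 (n = 35 cells, description only). Nodal and Lefty1 were both present in 27 cells, Lefty1 alone in 6 and Nodal alone in 2. Of the 14 tested genes of the male differentiation list, 8 had both XY embryos above both XX embryos and 1 the reverse, against 17.4% and 17.7% of all genes. In edgeR 0 of them passed, as did 0 of all 11708 genes. Nanos2, Dnmt3l and Pla2g2f, genes of the later male cell, had no count.

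**Figure D4:**
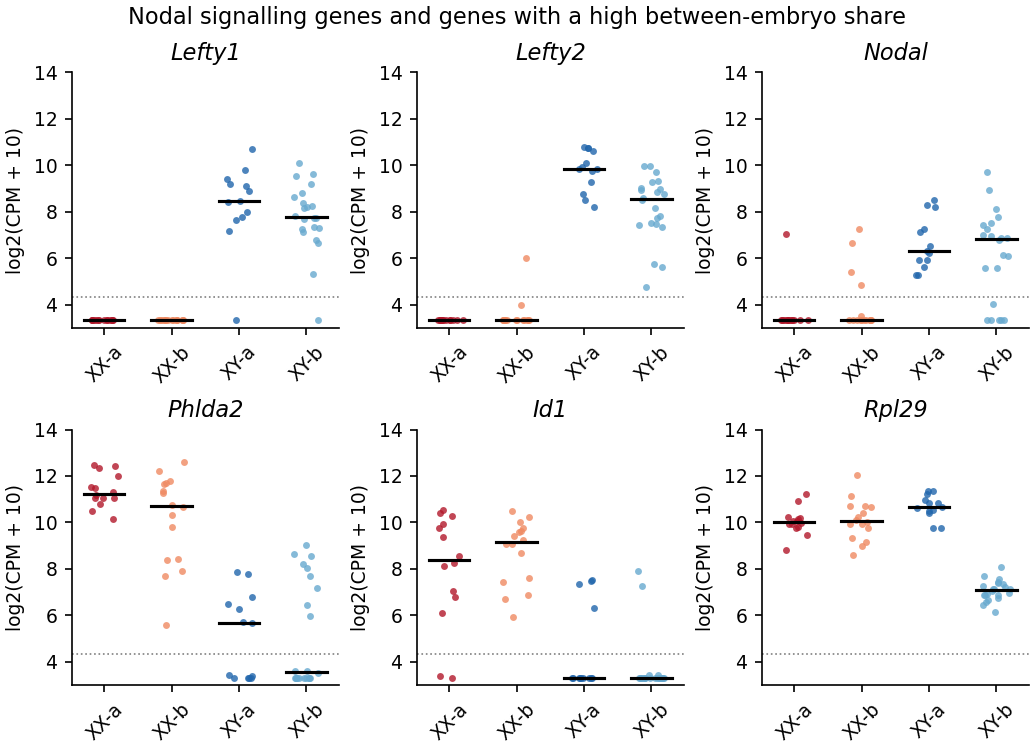
Level of Nodal signalling genes and of genes with a high between-embryo share in single Control cells, as log2(CPM + 10), by embryo. Points are cells, black bars embryo medians and the dotted line 10 CPM. Lefty1 and Lefty2 are at or near 0 in XX cells, Phlda2 and Id1 are higher in XX cells, and Rpl29 is low in all 22 cells of XY-b.

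In XX cells Phlda2 and Id1 were higher. Phlda2 had lowest, median and highest values of 1116, 2400.4 and 5749.9 CPM in XX-a, 37.3, 1658 and 6268 in XX-b, 0, 41.6 and 226 in XY-a and 0, 1.7 and 513 in XY-b. Phlda2, a maternally expressed imprinted gene that restrains placental growth, was present in all 30 XX cells and in 7 of 13 and 9 of 22 XY cells. Its log2 fold change of XX over XY was 4.63 ± 0.46 (SE) with an adjusted p of 0.233 in edgeR. Id1 had lowest, median and highest values of 0, 331 and 1484 CPM in XX-a, 50.2, 559 and 1418 in XX-b, 0, 0 and 174 in XY-a and 0, 0 and 234 in XY-b. Id1, an inhibitor of differentiation induced by BMP signals, was present in 12 of 14 cells of XX-a, 16 of 16 of XX-b, 4 of 13 of XY-a and 2 of 22 of XY-b, with TMM-scaled CPM of 461 and 589.7 in XX and 54.8 and 11 in XY and an adjusted p of 0.808. Id2, its relative, chosen after its values were seen, had TMM-scaled CPM of 81.7 and 59.6 in XX and 8.56 and 9.15 in XY and an adjusted p of 0.807.

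Germ cell and cell cycle lists gave no call between the sexes in edgeR, where 0 of all 11708 genes were called, so this is no trait of the lists. The median log2 fold change of XX over XY was 0.17 for 35 pluripotency genes, -0.08 for 7 germ cell markers, 0.37 for 26 meiosis genes, -0.22 for 43 S phase genes and 0.19 for 55 G2/M genes, against 0.01 over all 11708. Of the 55 G2/M genes 17 (30.9%) had both XX embryos above both XY embryos and 6 (10.9%) the reverse, against 17.7% and 17.4% of all genes. Of the 43 S phase genes these were 3 (6.98%) and 8 (18.6%). The sexes also differed in depth and in genes per cell, and came in separate tables, which cannot be told apart from sex.

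X-linked genes took a larger share of counts in XX cells. Over summed counts of 1064 X-linked symbols the share was 2.77% in XX-a, 2.44% in XX-b, 1.59% in XY-a and 1.62% in XY-b, or 2.61% ± 0.234 against 1.6% ± 0.0204 (SD, n = 2 embryos per sex), a ratio of 1.63. The embryos did not overlap, and the exact two-sided permutation p was 0.333, the smallest that 2 against 2 embryos allow. Single cells ranged from 1.78% to 3.66% in XX-a, 1.93% to 3.36% in XX-b, 1.09% to 1.85% in XY-a and 1.11% to 2.39% in XY-b, and 6 of 35 XY cells lay above the lowest XX cell. Without the Rhox homeobox cluster and ribosomal protein genes the ratio was 1.58, and without the 5 cells that stood apart 1.62.

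Gene by gene, the median log2 fold change of XX over XY was 0.59 over 423 X-linked genes and -0.01 over 11253 autosomal genes. At a mean of 50 CPM or more it was 0.65 over 83 X-linked genes, of which 75 (90.4%) were positive, and -0.08 over 3409 autosomal genes, of which 42.6% were positive. Both XX embryos lay above both XY embryos for 48 of the X-linked genes (57.8%) and 13.1% of the autosomal genes, and the reverse held for 1 (1.2%) and 19.4%. Porcn, an X-linked enzyme that lipidates Wnt proteins, chosen after its values were seen, had TMM-scaled CPM of 365 and 387 in XX and 95.1 and 68.6 in XY and an adjusted p of 0.732. Xist, the RNA that silences 1 X chromosome, had counts in 1 of 30 XX cells, 8 counts or 3.66 CPM, and in 0 of 35 XY cells, so that up to 8.57% is allowed (3 of 35).

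**Figure D5:**
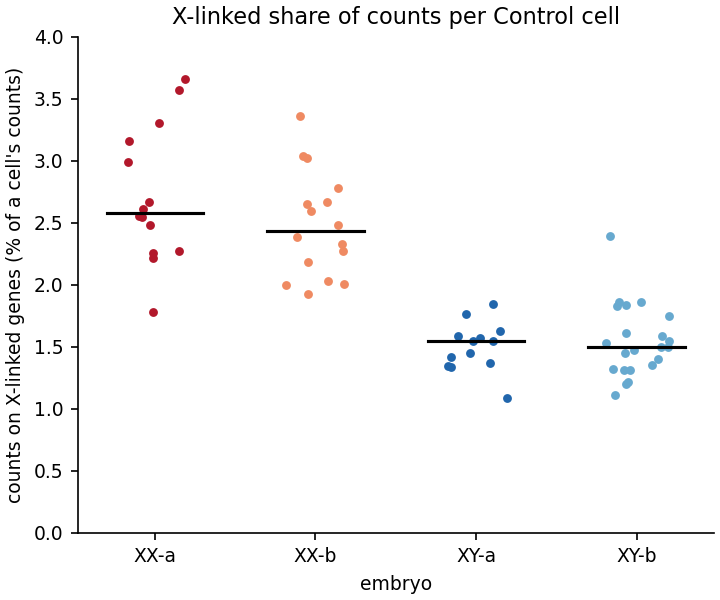
Share of each Control cell's counts that lies on X-linked genes, in percent, by embryo, with black bars at embryo medians. The medians are 2.58% and 2.44% in the XX embryos and 1.55% and 1.5% in the XY embryos.

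Across all 65 cells, the leading axis of variation within embryos followed the number of genes detected. The first principal component of log2(CPM + 10) after removal of embryo means held 8.69% of the variance and had an r of 0.82 with the log2 number of genes (n = 65 cells), and the 5 cells of lowest score were the 5 that stood apart. At its end with more genes lay Stub1, Thap11, Ccnf, Kif20a, Ddx41, Sf3b4, Aurka and Mrps30, and at the other Spen, Frs3, Mcm3ap, Mbp, Ddhd2, Prpf4b, Tnk2 and Snhg20. Ccnf, Kif20a and Aurka are cell cycle genes, and r with the G2/M sum was 0.50. Without the 5 cells the component held 5.38%, its r was 0.30 with genes, 0.50 with log2 total count, 0.45 with the G2/M sum and 0.32 with the S sum, and its ends were Prdx1, Rps4x, Psma6, Sec22b, Ccnb1, Tipin, Trap1a and Mki67 against Ankrd9, Tpgs1, Klf13, Stk11, Mrps34, Dapk3, Rsrp1 and Nat10.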

How the data were processed

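Values were counts of reads per gene symbol in single cells, as deposited by the authors in 1 table per sex. The build mm9 and the tools edgeR and HISAT2 are named in the submitters' processing notes. Which step each served, the annotation and any use of strand were not given in the sources used here. Each of the 65 kept Control cells held 99840 to 3380505 counts, each cell was its own library, 0 pairs of columns were identical, and no doublet caller was run.

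Counts were scaled to CPM over each cell's total. A gene was present at 10 CPM or more. CV was taken per embryo for genes with a mean of 50 CPM or more and divided by the median CV in 20 bins of like mean. Variance between embryos used log2(CPM + 10). Counts summed over each embryo's cells were tested with edgeR 4.0.16 (filterByExpr, TMM, quasi-likelihood test, Benjamini-Hochberg adjusted p under 0.05) in R 4.3.3. DESeq2 1.42.0 and limma 3.58.1 were alternatives, along with other filters, scalings and left-out embryos. Python 3.11.15 (numpy 2.4.6, pandas 2.3.3, scipy 1.17.1, matplotlib 3.10.9) gave the rest. The scripts were tested on simulated data. Intervals and floors cover counting error only, and p-values measure the spread between embryos as labelled. Promoters came from RefSeq (GRCm38.p6), whose coordinates were not mixed with mm9.

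The cells, gene lists and tests were chosen with earlier results of these data known. Named genes followed rules: the 12 genes present in every cell with the smallest highest CV, the 20 with the largest lowest CV ratio, the 10 with the largest variance share between embryos, the 8 outside the lists most correlated with each cell cycle sum, the 8 at each end of the first principal component, a fixed set of germ cell and cell cycle genes, and up to 4 members of each list with the highest and lowest share of cells. A rule for genes called between the sexes named none. Predicted genes, Rik, Mir and Snor symbols and pseudogenes were skipped. Other genes are named as chosen after their values were seen: Id2, Porcn, the ribosomal protein group and members of lists beyond these rules. Some genes that these rules name are not reported here.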

Additional observations from a re-analysis of the deposited data

How the results depend on the processing

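No gene passed between XX and XY embryos in edgeR, in cells with at least 200000 counts and 3000 genes, or without the 5 cells that stood apart. DESeq2 called 186 genes, no filter on low counts 117, limma 23 and the fit in which the 4 ECKO embryos share the spread 6, and leaving out 1 embryo gave 0 to 268. Lefty1, Lefty2, Nodal, Phlda2 and Id1 kept their direction throughout, and passed the threshold in limma, without a filter, without XX-a and without XX-b. All of these but Lefty2 passed in DESeq2, and Lefty1 and Phlda2 with the ECKO embryos in the fit. Genes present in every cell numbered 628, and 1021 at 1 count, 346 at 50 CPM and 1024 without the 5 cells. The 54 genes of high CV were 115 at a mean of 20 CPM and 32 at 100 CPM, and 86 to 101 with 1 embryo left out, where fewer embryos had to pass. The median share of variance between embryos was 7.30%, and 3.91% to 9.19% with 1 embryo left out. The X-linked share was 1.004 percentage points higher in XX, 0.639 over genes of 5 to 500 CPM, and 0.709 without Rhox and ribosomal protein genes. The median share of cells with a gene of the fixed set was 86.2%, and 78.5% after thinning to 50000 counts, 95.4% at 1 count and 63.1% at 50 CPM. The correlation of S and G2/M sums stayed negative in the alternatives run, from -0.45 to -0.07. The removal of the 5 cells and of Rhox and ribosomal genes was chosen after seeing the data. The causes were not tested. No paired analysis was possible because the embryo codes of the columns could not be tied to the embryo numbers of the labels, so the planned block was not run.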

Other observations

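Imprinted genes, which are expressed from 1 parental copy in most tissues, were patchy in the Control germ cells. Of 36 matched, 0 were present in every cell, 11 in none and 17 in under 10% of cells, and a cell held 3 to 13 of them (median 7). Peg3 was present in 54 cells, Slc38a4 and Phlda2 in 46 each, Gnas in 41, Igf2r in 39, and H19 and Cdkn1c in 28 each, while Igf2, which encodes a growth factor next to H19, was present in 3. Slc38a4, an amino acid transporter, was present in 13 of 14 cells of XX-a and 15 of 16 of XX-b, against 6 of 13 of XY-a and 12 of 22 of XY-b. Nespas, an antisense RNA of the Gnas locus, went the other way with 4, 2, 7 and 17 cells in the same order, and its reads cannot be told apart from those of overlapping genes where strand was not used. Of 23 imprinted genes tested between the sexes, 9 had both XX embryos above both XY embryos and 4 the reverse, against 17.7% and 17.4% of all genes. In edgeR 0 of them passed, as did 0 of all 11708 genes.

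Genes of the early response to stress or dissociation were mostly low. Hspa8 and Hsp90aa1, chaperones that are also abundant in unstressed cells, were present in all 65 cells, Jund and Dnajb1 in 64, Ier2 in 63 and Dusp1 in 55. Fos was present in 11 cells, Jun in 4, Egr1 in 3 and Atf3 in 0. Of 19 glycolysis genes, Aldoa, Gapdh, Gpi1, Pkm and Ldhb were present in all cells, and Hk1 and Hk2, which encode hexokinases, in 53 and 47. Eno1 was present in 6 of 13 cells of XY-a, 1 of 14 of XX-a and 0 of XX-b and XY-b. Its TMM-scaled CPM over summed counts was low throughout, at 3.47 in XX-a, 1.54 in XX-b, 7.92 in XY-a and 2.51 in XY-b. The part of reads shared with near-identical gene copies in these low values was not tested. The Eno1 shares are therefore not read as absence of its RNA or as a difference of XY-a.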
